A study of Homo sapiens with 6 samples.

Results

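HLA-B, HLA-C and B2M encode parts of the class I major histocompatibility complex molecule, by which a cell shows peptides from its own proteins to T cells. These 3 genes were followed among the 5187 genes listed in the count files of the series, and were chosen by name after their values in this same comparison of GABA with control were known. Their own differences are therefore given as a description, without a test. RNA was sequenced from Huh7, an established line from a human hepatocellular carcinoma, grown in medium with serum. In 3 libraries the cultures were controls and in 3 they had received GABA (gamma-aminobutyric acid, an inhibitory neurotransmitter) for 24 h, in a series on GABA and metastasis of this cancer. The dose is not given in the labels, and the libraries of each group are named as biological replicates 1 to 3 of this 1 line.

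A class I molecule is a heavy chain, encoded by HLA-B, HLA-C or a relative of these, held together with beta-2-microglobulin, the product of B2M. Peptides cut by the proteasome in the cytosol are carried into the endoplasmic reticulum by the TAP transporter, trimmed there by aminopeptidases and fitted into the groove of the heavy chain with the help of tapasin and the chaperone calreticulin. Interferon gamma raises class I on the cell surface through factors such as IRF1 and NLRC5, and many tumours carry less of it.

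How the listed genes were chosen is not stated, but the files hold few genes with a small difference between these groups. The smallest difference among the tested genes was 0.123 on the log2 scale, and the place of a gene in the files followed its p-value (Spearman correlation across genes 0.931). In all, 98.7% of the 4981 tested genes passed edgeR's quasi-likelihood test, 51.2% lower and 47.6% higher with GABA. Which direction was the larger depended on the tool and scaling, with 2485 genes higher and 2048 lower in DESeq2, and 2373 higher and 2050 lower with its size factors in edgeR, against 2369 and 2549 here. Control and GABA libraries did not overlap in 92.5% of the tested genes, and in 46.7% all GABA libraries were the lower ones. A count of calls near these shares is no result about the genes counted. Library totals over the listed genes ran from 7702666 to 8392945 counts, and control replicate 3 held the most mitochondrially encoded counts, 9.11% against 6.66% to 7.74% in the other libraries. The identity of the line could not be checked, since 1 of 19 markers of hepatocytes and liver cancer was listed (TFRC, the transferrin receptor, which proliferating cells of many kinds carry). Of 19 leukocyte markers none was listed, and of 14 endothelial and fibroblast markers 2 were, PDGFRB at 40.3 and 20.2 CPM and COL3A1 at 19.98 and 31.6 CPM in control and GABA libraries. CPM, counts relative to library size, were taken over the listed genes with TMM scaling between libraries.

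The stretches before the start sites are shown first because class I heavy chain genes and B2M are known to share a set of control elements there. These are a site for NF-kB (enhancer A), an interferon-stimulated response element, an X2 box related to the cyclic AMP response element, and a CCAAT or Y box. In the 3 sequences below, 250 bases from RefSeq on GRCh38.p14, capitals mark matches, on either strand, to 4 motifs: GGGA and CC with any 4 bases between them (NF-kB-like), AANNGAAA (interferon), TGACG (X2) and GCCAATCA (CCAAT).
HLA-B (chr6:31357180-31357429, minus strand): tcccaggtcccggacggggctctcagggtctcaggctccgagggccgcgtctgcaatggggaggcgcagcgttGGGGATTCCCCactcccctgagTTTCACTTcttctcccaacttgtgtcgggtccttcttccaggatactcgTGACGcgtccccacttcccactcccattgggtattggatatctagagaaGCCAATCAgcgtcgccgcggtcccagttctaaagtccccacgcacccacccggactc
HLA-C (chr6:31272093-31272342, minus strand): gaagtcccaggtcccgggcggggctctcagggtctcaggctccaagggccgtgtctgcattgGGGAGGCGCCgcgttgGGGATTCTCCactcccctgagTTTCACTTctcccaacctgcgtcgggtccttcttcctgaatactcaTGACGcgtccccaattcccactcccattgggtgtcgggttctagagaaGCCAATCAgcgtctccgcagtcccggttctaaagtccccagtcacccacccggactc
B2M (chr15:44711267-44711516, plus strand): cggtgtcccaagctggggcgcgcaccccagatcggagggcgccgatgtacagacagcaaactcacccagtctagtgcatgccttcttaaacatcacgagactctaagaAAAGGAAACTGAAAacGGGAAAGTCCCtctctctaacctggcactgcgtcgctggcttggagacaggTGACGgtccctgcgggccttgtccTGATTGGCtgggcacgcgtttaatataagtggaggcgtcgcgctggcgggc

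The HLA-B and HLA-C stretches were 89.0% identical over 254 aligned positions, and B2M shared 47.3% with HLA-B. In both heavy chain genes the matches stood in the same order toward the gene, with NF-kB-like, interferon, X2 and CCAAT letters. In HLA-B they began at positions -177, -155, -106 and -57 from the start site. In B2M the interferon letters came first, from -142, on the opposite strand from those of the heavy chains. The NF-kB-like letters followed from -126, and the CCAAT letters, from -51, also stood on the other strand. Within B2M the matches AAAGGAAA and AACTGAAA overlap each other, and in HLA-B and B2M the NF-kB-like motif matched on both strands at nearly the same letters. No match to one motif overlapped a match to another.

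Among 35116 RefSeq windows of the same length, the NF-kB-like motif was present in 22.6%, AANNGAAA in 20.3%, TGACG in 21.2% and GCCAATCA in 3.08%. Windows with all 4 numbered 9, or 0.026%. The motifs were written after the member sequences had been read, so that all 3 members hold them is given by their choice. Of the other 6 genes with all 4, PATL2 lies head to head with B2M, and its windows share up to 193 bases with that of B2M. CDC23, CLCC1, ELK1, NEUROD2 and TYSND1 were the remaining 5, and none of these 6 genes was listed in the files. Of 61 genes of the class I, class II, interferon and ligand lists with a window, the 3 members held all 4 motifs and none held 3.

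**Figure D1:**
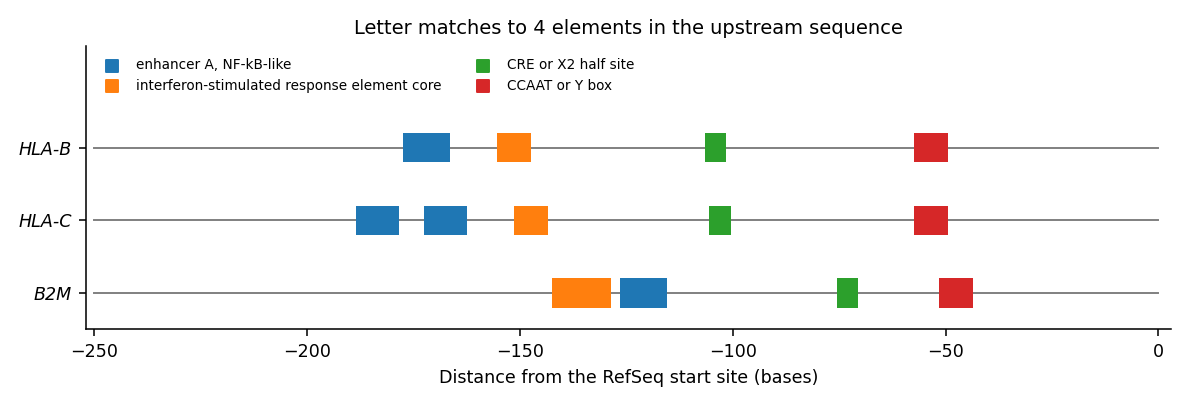
Matches to the 4 motifs before the RefSeq start sites of HLA-B, HLA-C and B2M. The x axis is the distance from the start site in bases, and each box is a stretch matched on either strand. Each box of HLA-B has one of HLA-C within a few bases, and HLA-C has a further NF-kB-like box, whereas in B2M the interferon box lies farther from the gene than the NF-kB-like box.

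HLA-B (ENSG00000234745, chromosome 6, 31269491 to 31357188 in GENCODE release 29 on the same GRCh38 build, minus strand) is a classical heavy chain gene. Its annotated span reaches into that of HLA-C. Its level in control replicates 1, 2 and 3 was 441, 449 and 416 CPM, and in GABA replicates 1, 2 and 3 it was 358, 333 and 321 CPM. The groups did not overlap, here as in the other 2 members, beside 46.7% of all tested genes with GABA lower throughout, and the highest GABA library stood at 86.0% of the lowest control. The mean was 435 ± 17.1 CPM in control and 337 ± 18.9 CPM in GABA libraries (SD, n = 3 each), a log2 fold change of -0.37 ± 0.07 (SE) or 0.774 of the control level. Counts of 2577 to 3636 lay behind each value, with a counting error of 1.66% to 1.97%.

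HLA-C (ENSG00000204525, chromosome 6, 31268749 to 31272130, minus strand) encodes the heavy chain that is the main class I ligand of killer-cell immunoglobulin-like receptors on NK cells. It measured 376, 369 and 321 CPM in control replicates 1, 2 and 3 and 296, 274 and 266 CPM in GABA replicates 1, 2 and 3. The gap between the groups was the narrowest of the 3 members, with the highest GABA library at 92.3% of the lowest control, which was replicate 3. The means were 356 ± 29.98 and 279 ± 15.6 CPM (SD, n = 3 each), a log2 fold change of -0.35 ± 0.08 (SE).

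B2M (ENSG00000166710, chromosome 15, 44711487 to 44718877, plus strand) encodes the light chain that all class I heavy chains share. It measured 982, 929 and 1118 CPM in control replicates 1, 2 and 3 and 818, 855 and 799 CPM in GABA replicates 1, 2 and 3. Control replicate 3 was the highest library, and the highest GABA library lay at 92.0% of the lowest control. The means were 1010 ± 97.4 and 824 ± 28.5 CPM (SD, n = 3 each), a log2 fold change of -0.29 ± 0.07 (SE). In RNA from whole cultures, fewer cells with these transcripts and less of them per cell cannot be told apart.

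All 3 members passed the low-count filter and were among the more abundant listed genes, above 87.5% (HLA-C) to 96.6% (B2M) of the tested genes in mean CPM. Their differences were of ordinary size for these files. The absolute log2 fold change exceeded that of 44.5% of tested genes for HLA-B, 40.9% for HLA-C and 27.6% for B2M, beside a median absolute value of 0.40. Of all listed counts the 3 genes together took 0.175% to 0.182% with control and 0.140% to 0.148% with GABA. Without control replicate 3 the log2 fold changes were -0.40 for HLA-B, -0.42 for HLA-C and -0.22 for B2M.

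**Figure D2:**
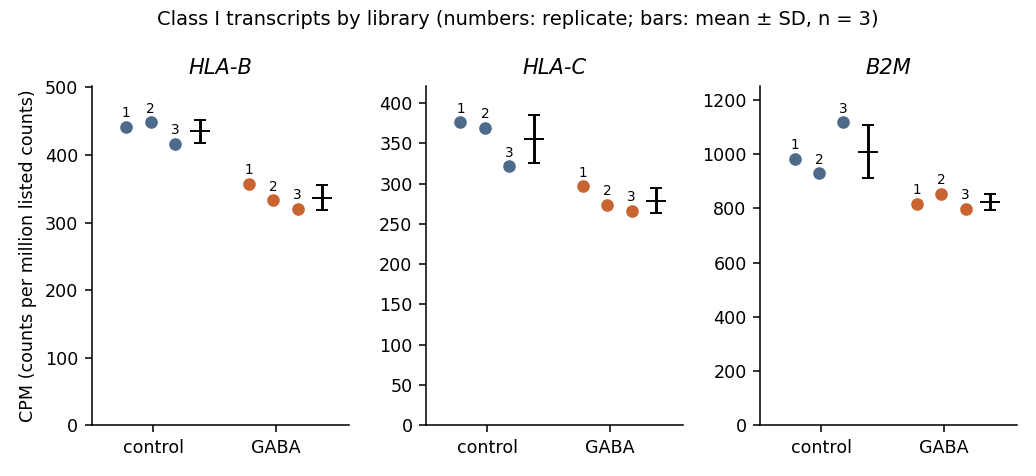
Levels of HLA-B, HLA-C and B2M in each library, in CPM, with the replicate number above each point and the mean ± SD (n = 3) beside it. In every panel the 3 GABA libraries lie below the 3 control libraries, and B2M is highest in control replicate 3, where HLA-C is at its lowest among the controls.

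FCGRT, the neonatal Fc receptor for IgG and albumin, is another chain that pairs with beta-2-microglobulin, and it had a log2 fold change of -0.23 ± 0.10 (SE) at 69.8 and 59.6 CPM (edgeR adjusted p = 0.041). Its call was lost without control replicate 2 (-0.14) and without GABA replicate 1, 2 or 3 (-0.24, -0.23 and -0.22). The call was also lost with DESeq2 (-0.19), with DESeq2 size factors in edgeR (-0.18), with library totals alone (-0.21) and with a replicate block (-0.22). Of the 11 genes in the list of class I molecules used here, the 3 members and FCGRT were listed, and nothing is read from the count, since 3 of these 4 had been chosen with their values known. Of the 12 HLA class I pseudogenes none was listed.

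The heavy chain genes are near copies of each other, so reads can be assigned to the wrong one. The longest CCDS transcripts of HLA-B and HLA-C in GENCODE were 91.5% identical over 1551 aligned positions. Of the 50-base windows of these reference transcripts, 2.5% in HLA-B and 6.8% in HLA-C recurred exactly in a transcript of another gene, and 0 of 1656 did in B2M. The alleles of Huh7 may differ from the reference ones, and reads from divergent alleles can be lost in alignment. Beside this, 18.9% of the exon length of HLA-B and 1.4% of that of HLA-C overlap another gene. With HLA-B and HLA-C summed to 1 feature, a choice made after seeing the data, the log2 fold change was -0.36 ± 0.07 (SE), and B2M, with no shared window, had -0.29.

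Levels of different genes were compared per kilobase of transcript. With the longest CCDS transcript as length, B2M stood at 592 ± 57.1 CPM per kilobase in control libraries, HLA-B at 281 ± 11.1 and HLA-C at 231 ± 19.5 (SD, n = 3 each). These values stood apart by more than their spread. In GABA libraries the values were 483 ± 16.7 for B2M, 218 ± 12.2 for HLA-B and 182 ± 10.2 for HLA-C, in the same order. With the union of all annotated exons as length, which for B2M is 6079 bases with retained introns against 1705 for the CCDS transcript, the control levels lay closer, at 166 ± 16.0 for B2M, 143 ± 5.60 for HLA-B and 142 ± 11.96 for HLA-C, the last pair within their spread. How far B2M stood above the heavy chains, and HLA-B above HLA-C, therefore depended on the transcript model.

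Within a library the ratio of 2 genes does not depend on the scaling between libraries. The ratio of HLA-B to HLA-C per kilobase of CCDS transcript was 1.17, 1.21 and 1.29 in control replicates 1, 2 and 3, and 1.20, 1.21 and 1.19 in GABA replicates 1, 2 and 3. The mean log2 ratio differed by -0.02 between GABA and control, less than the SD of 0.07 among controls. The ratio of B2M to HLA-B plus HLA-C was 1.09, 1.03 and 1.37 in control and 1.13, 1.27 and 1.23 in GABA libraries. Its mean log2 difference of 0.07 was also smaller than the SD of 0.22 among controls, and control replicate 3 had the highest ratio of the 6 libraries. With each library left out in turn this difference ran from -0.01 (without control replicate 2) to 0.20 (without control replicate 3) on the scale of exon unions, so its sign was not settled.

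B2M thus did not vary together with HLA-B and HLA-C within the control group. In control replicate 3 B2M was at its highest, while HLA-B and HLA-C were at their lowest control level. This was the library with the largest mitochondrially encoded share, whose part in these levels was not tested. In the GABA group HLA-B and HLA-C shared 1 order, highest in replicate 1 and lowest in replicate 3, and B2M was highest in replicate 2.

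**Figure D3:**
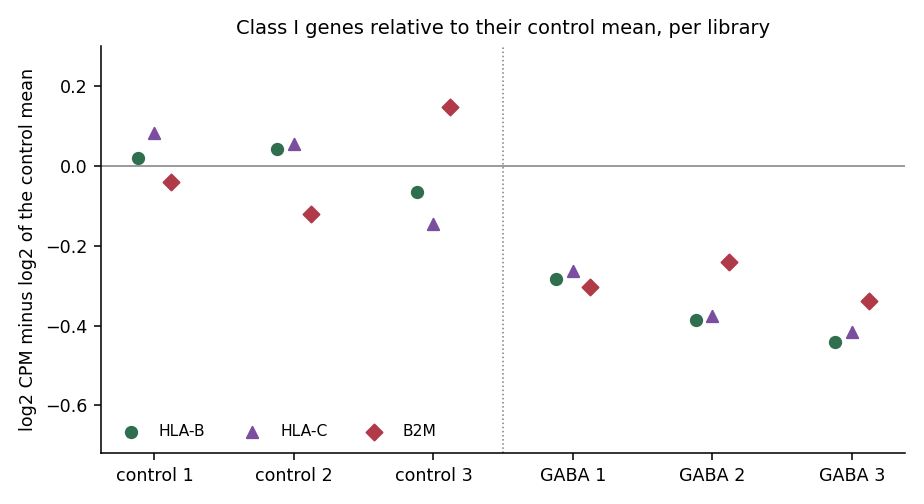
Level of each class I gene in each library relative to its own control mean, on a log2 scale, with libraries on the x axis and 1 symbol per gene. The GABA libraries lie between -0.24 and -0.44, below all control libraries. In control replicate 3 B2M lies above 0 and HLA-B and HLA-C below it.

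The genes whose pattern was most like that of the members were sought among 3067 other tested genes whose mean reached 50 CPM. The measure was the root mean square difference over the 6 libraries between a gene's log2 CPM, centred on its mean, and the mean centred profile of the 3 members. The 5 closest were SLC26A2, a sulfate transporter (0.021), EIF2D, a translation initiation factor (0.025), PKP4, a plakophilin (0.025), TMEM64, a membrane protein (0.027), and GTF2E2, a subunit of the general transcription factor TFIIE (0.030). By the same measure HLA-B stood at 0.036, HLA-C at 0.065 and B2M at 0.096. These 5 genes were closer to the mean profile than any of the members it was made from. An average is smoother than a single gene, and these were the closest of 3067 in files with few small differences. No likeness particular to these genes is therefore read from it.

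The machinery that supplies and loads peptides moved in both directions. Of the 18 genes of the loading list 7 were listed, 5 lower and 2 higher, beside 51.2% and 47.6% over all tested genes. Their median log2 fold change was -0.18, the same as over all tested genes. HSPA5, the abundant chaperone BiP, went from 8514 ± 638 to 4594 ± 164 CPM (SD, n = 3 each) and fell by 0.89 ± 0.07 (SE) on the log2 scale (edgeR adjusted p = 2.5e-06). ERAP1, which trims peptides in the endoplasmic reticulum, fell by 0.29 ± 0.07, and CALR, the chaperone calreticulin of the loading complex, rose by 0.32 ± 0.09 (edgeR adjusted p = 0.0034 and 0.0070). CALR had 0.21 without control replicate 3. SEC61A1, a channel of the endoplasmic reticulum membrane, had 0.18 ± 0.06 and lost its call without GABA replicate 1 (0.18) or 2 (0.18).

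The defining parts of the loading complex had small differences. TAPBP, which encodes tapasin, measured 423, 423 and 361 CPM in control replicates 1, 2 and 3 and 333, 331 and 373 in GABA replicates 1, 2 and 3. These groups overlapped, since GABA replicate 3 lay above control replicate 3, and the log2 fold change was -0.22 ± 0.08 (SE; edgeR adjusted p = 0.020). TAP2, a chain of the peptide transporter, had -0.18 ± 0.07, and 32.3% of its exon length overlaps another gene. Both calls were lost without GABA replicate 1 (-0.19 for TAPBP and -0.17 for TAP2), GABA replicate 2 (-0.19 and -0.17) or control replicate 1 (-0.18 and -0.15). Both were also lost with DESeq2 size factors in edgeR (-0.18 and -0.14), and that of TAP2 with DESeq2 (-0.14). CANX, the chaperone calnexin, had -0.16 ± 0.07 and kept its call in 1 of the 6 fits that left out a library, the one without control replicate 2 (-0.21). Without control replicate 3 it had -0.09, and without control replicate 1 or GABA replicate 1, 2 or 3 it had -0.18, -0.14, -0.16 and -0.17. Of the loading list 3 genes passed without GABA replicate 1 or 2, and 4 without control replicate 1. TAP1 is not among the listed genes.

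All 3 listed genes of the immunoproteasome and its activators, of 8 in that list, were lower, beside 51.2% of all tested genes. No pattern is read from so few genes. PSMB9, an interferon-inducible catalytic subunit encoded in the MHC region, measured 94.6, 103 and 84.1 CPM in control replicates 1, 2 and 3 and 76.0, 73.1 and 70.2 in GABA replicates 1, 2 and 3, a fall by 0.36 ± 0.09 (SE) on the log2 scale (edgeR adjusted p = 0.0046). PSME1 and PSME2, the chains of the PA28 activator that opens the proteasome, had log2 fold changes of -0.29 ± 0.08 and -0.33 ± 0.07 (edgeR adjusted p = 0.0055 and 0.0020). All 3 calls held in each fit that left out a library. In the constitutive core 4 of 14 subunits were listed. PSMB3, a structural beta subunit, rose by 0.32 ± 0.06, and PSMB6, PSMA1 and PSMA5 had -0.19 ± 0.06, -0.26 ± 0.10 and -0.18 ± 0.07. PSMB6 lost its call without GABA replicate 3 (-0.17). PSMA1 lost it without GABA replicate 1 (-0.27), 2 (-0.27) or 3 (-0.25) or control replicate 2 (-0.21), and PSMA5 without GABA replicate 1 (-0.18), 2 (-0.17) or 3 (-0.19) or control replicate 1 (-0.17). These 3 genes, each a structural or catalytic part of the core, also did not pass in DESeq2. Of the exon length of PSMA1 24.7% overlaps another gene. Without GABA replicate 1 or 2 the core list had 2 calls, and without GABA replicate 3 it had 1.

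Of the 11 cytosolic peptidases 4 were listed, 3 lower and 1 higher, beside 51.2% lower and 47.6% higher over all tested genes. BLMH, bleomycin hydrolase, fell by 0.47 ± 0.07 (edgeR adjusted p = 1.9e-04). NPEPPS, the puromycin-sensitive aminopeptidase, had -0.19 and lost its call without GABA replicate 1 (-0.15), with DESeq2 (-0.14) and with DESeq2 size factors in edgeR (-0.14). THOP1, an oligopeptidase that destroys peptides, had 0.25 and lost its call without GABA replicate 2 (0.24) or 3 (0.22), and it had 0.15 without control replicate 3. RNPEP, aminopeptidase B, had -0.22 and lost its call without GABA replicate 3 (-0.18), which left 2 calls in the list.

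**Figure D4:**
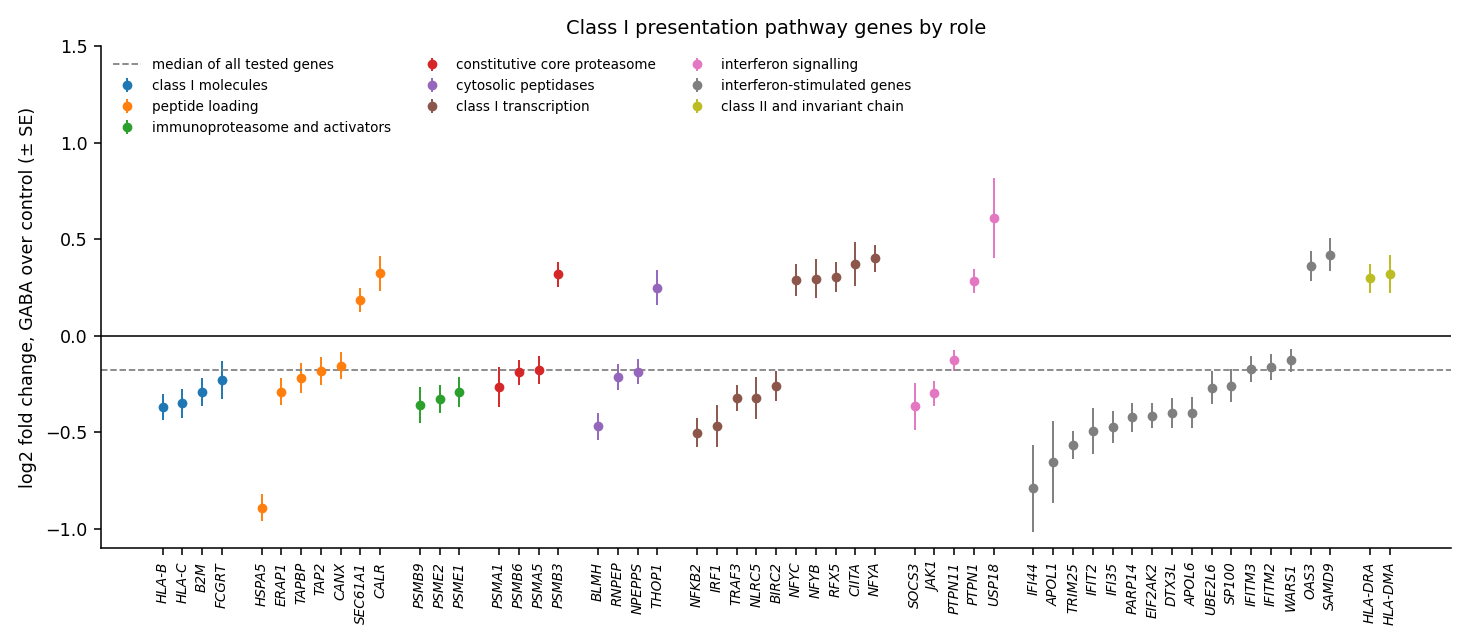
Log2 fold change of GABA over control (± SE from the edgeR fit) for each tested gene of 9 lists, grouped by role along the x axis. The dashed line marks the median of all tested genes at -0.18. The class I molecules lie below that line, the transcription list is split evenly around 0, and both class II genes lie above 0.

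The regulators of class I transcription were split, with 5 of the 10 listed genes (of 29) lower and 5 higher. Over all tested genes 51.2% were lower and 47.6% higher. Among those lower, NFKB2, the p100 and p52 subunit of NF-kB, measured 362, 374 and 315 CPM in control replicates 1, 2 and 3 and 258, 246 and 238 in GABA replicates 1, 2 and 3, a fall by 0.50 ± 0.08 (SE) on the log2 scale (edgeR adjusted p = 2.4e-04). IRF1, which binds the interferon-stimulated response element, measured 41.5, 37.8 and 35.1 CPM in control and 26.6, 28.8 and 27.4 in GABA libraries and fell by 0.47 ± 0.11 (edgeR adjusted p = 0.0029). Of the exon length of IRF1 22% overlaps another gene. TRAF3 and BIRC2, components of the complex that holds back alternative NF-kB signalling, fell by 0.32 ± 0.07 and 0.26 ± 0.08, and BIRC2 had -0.17 without control replicate 3.

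NLRC5, the class I transactivator, is named after its values were seen, as are NFYB, NFYC, RFX5 and CIITA. NLRC5 measured 64.1, 75.1 and 58.8 CPM in control replicates 1, 2 and 3 and 52.7, 48.7 and 56.8 in GABA replicates 1, 2 and 3. Control replicate 3 and GABA replicate 3 lay close together, and the log2 fold change was -0.32 ± 0.11 (SE; edgeR adjusted p = 0.016). The call was lost without control replicate 2 (-0.22) or GABA replicate 2 (-0.27).

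The genes that were higher encode factors of the X and Y boxes and the class II transactivator. NFYA rose by 0.40 ± 0.07 (edgeR adjusted p = 5.6e-04), and NFYB, NFYC and RFX5 had 0.29 ± 0.10, 0.29 ± 0.08 and 0.30 ± 0.08. NF-Y is the trimer that binds CCAAT boxes, and RFX5 binds the X box of both classes. NFYB lost its call without control replicate 1 (0.25). CIITA, the class II transactivator, had 0.37 ± 0.12 at 49.3 and 63.7 CPM, and lost its call without GABA replicate 3 (0.24). Another gene overlaps 23.4% of its exon length.

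Of the 14 class II genes 2 were listed, and both were higher, beside 47.6% of all tested genes. No pattern is read from so few. HLA-DRA, the class II alpha chain, measured 98.8, 107 and 99.7 CPM in control replicates 1, 2 and 3 and 122, 132 and 122 in GABA replicates 1, 2 and 3, a rise by 0.30 ± 0.08 (SE) on the log2 scale (edgeR adjusted p = 0.0045). HLA-DMA, which helps load class II, rose by 0.32 ± 0.10 (edgeR adjusted p = 0.0093). Both calls held with each library left out.

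Of 61 interferon-stimulated genes outside the class I pathway 16 were listed. Of these 13 were lower, beside 51.2% of all tested genes, 2 were higher and 1 did not pass. Their median was -0.40 beside -0.18 over all tested genes. Most genes of this list are absent from the files, and it was chosen with earlier results known. No change of the whole list is read from this. TRIM25, a ubiquitin ligase of RNA sensing, fell by 0.57 ± 0.07 (edgeR adjusted p = 7.1e-05). EIF2AK2, the kinase PKR, fell by 0.41 ± 0.07, and IFI35 and PARP14 by 0.47 ± 0.08 and 0.42 ± 0.08. The 2 that rose were SAMD9 (0.42 ± 0.08) and OAS3 (0.36 ± 0.08). WARS1, the tryptophanyl-tRNA synthetase, did not pass (-0.13 ± 0.06, edgeR adjusted p = 0.056).

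In interferon signalling 5 of 20 genes were listed, 3 lower and 2 higher, beside 51.2% and 47.6% over all tested genes. JAK1, a kinase of both interferon receptors, fell by 0.30 ± 0.06 (edgeR adjusted p = 0.0016), and PTPN1, a phosphatase that acts on JAK2 and TYK2, rose by 0.28 ± 0.06 (edgeR adjusted p = 0.0020). SOCS3, a feedback inhibitor, had -0.37 and lost its call without control replicate 2 (-0.21) or GABA replicate 3 (-0.35). USP18, another feedback inhibitor, had 0.61 ± 0.21 at 7.69 and 11.8 CPM, and lost its call without GABA replicate 1 (0.57) or 3 (0.54). PTPN11 had -0.13 ± 0.05 and lost its call without GABA replicate 1 (-0.14), 2 (-0.12) or 3 (-0.12). Its call was also lost without control replicate 1 (-0.13) or 2 (-0.13) and with DESeq2 (-0.08). The list had 3 calls without GABA replicate 1 or control replicate 2, and 2 without GABA replicate 3.

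In a list drawn up for protein turnover and surface traffic, 8 of 28 genes were listed. Of these 5 were lower and 3 higher, beside 51.2% and 47.6% over all tested genes. SPPL2A, an intramembrane protease, fell by 0.51 ± 0.07, and MARCHF8, a membrane-bound ubiquitin ligase, by 0.28 ± 0.07 (edgeR adjusted p = 1.9e-04 and 0.0048). EHD1, of endosomal recycling, rose by 0.48 ± 0.09, and SUSD6, a membrane protein reported to promote class I degradation, by 0.29 ± 0.08 (edgeR adjusted p = 7.1e-04 and 0.0083). NBR1 had 0.16 ± 0.06 and lost its call without GABA replicate 1 (0.16) or 2 (0.15). SEL1L had -0.16 ± 0.07 and lost its call without GABA replicate 1 (-0.13), 2 (-0.16) or 3 (-0.18) or control replicate 1 (-0.17). With DESeq2 the call of SEL1L was also lost (-0.11). The list had 6 calls without GABA replicate 1 or 2.

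Other ligands by which NK and T cells read a target cell were also mixed, with 8 of 33 tested, 5 higher and 3 lower. Over all tested genes 47.6% were higher and 51.2% lower. The ligand counts turned to 3 higher and 4 lower without control replicate 1, and became 4 of each without GABA replicate 1 or 3. MICA, a stress ligand of the NK receptor NKG2D, rose by 0.34 ± 0.09, PVR by 0.26 ± 0.07 and NCR3LG1, the NKp30 ligand B7-H6, by 0.31 ± 0.09 (edgeR adjusted p = 0.0067, 0.0056 and 0.0094). VSIR, the checkpoint protein VISTA, fell by 0.60 ± 0.12, and CD47, which tells phagocytes to spare a cell, by 0.28 ± 0.08 (edgeR adjusted p = 0.0011 and 0.0066). FAS, a death receptor, had 0.35 ± 0.11 and lost its call without control replicate 1 (0.26). ICAM1, an adhesion ligand of T cells, had 0.32 ± 0.12 and lost its call without GABA replicate 1 (0.26) or 3 (0.31) or control replicate 1 (0.33), and it had 0.18 without control replicate 3. Its groups overlapped, since control replicate 2 (94.3 CPM) lay above GABA replicate 2 (91.0 CPM). Another gene overlaps 23.6% of the exon length of ICAM1.

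HLA-B and HLA-C lie side by side in the MHC region of chromosome 6 among listed genes of both directions. From GABBR1, which encodes a subunit of the metabotropic GABA receptor, to KIFC1, a spindle motor gene, 37 of the listed and tested genes were followed. Of these 22 were higher and 15 lower, HLA-B and HLA-C among the latter, beside 47.6% higher and 51.2% lower over all tested genes, and no regional pattern is read from this. On the low side of HLA-C the nearest listed gene was TCF19, a gene of the G1/S transition, which rose by 0.64 ± 0.07 (edgeR adjusted p = 3.7e-05). On the high side of HLA-B it was MICA. FLOT1 (0.50 ± 0.09) and BAG6 (0.29 ± 0.07), abundant genes of the same region, rose as well.

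The genes of the region that were lower included PSMB9, TAP2 and TAPBP, all of the class I pathway, together with GABBR1, which fell by 0.61 ± 0.10 from 89.6 to 58.8 CPM (edgeR adjusted p = 4.3e-04). Others of the lower genes, such as DDR1, TNXB and COL11A2, lie outside that pathway. In DDR1 the groups overlapped, since GABA replicate 1 (193 CPM) lay above control replicate 3 (184 CPM). B2M lies on chromosome 15, between the listed genes EIF3J, a translation initiation factor subunit, and TRIM69. EIF3J fell by 0.26 ± 0.07 (edgeR adjusted p = 0.0059). TRIM69, a ubiquitin ligase gene, had -0.29 ± 0.10 and lost its call without GABA replicate 2 (-0.25) and with DESeq2 (-0.25).

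**Figure D5:**
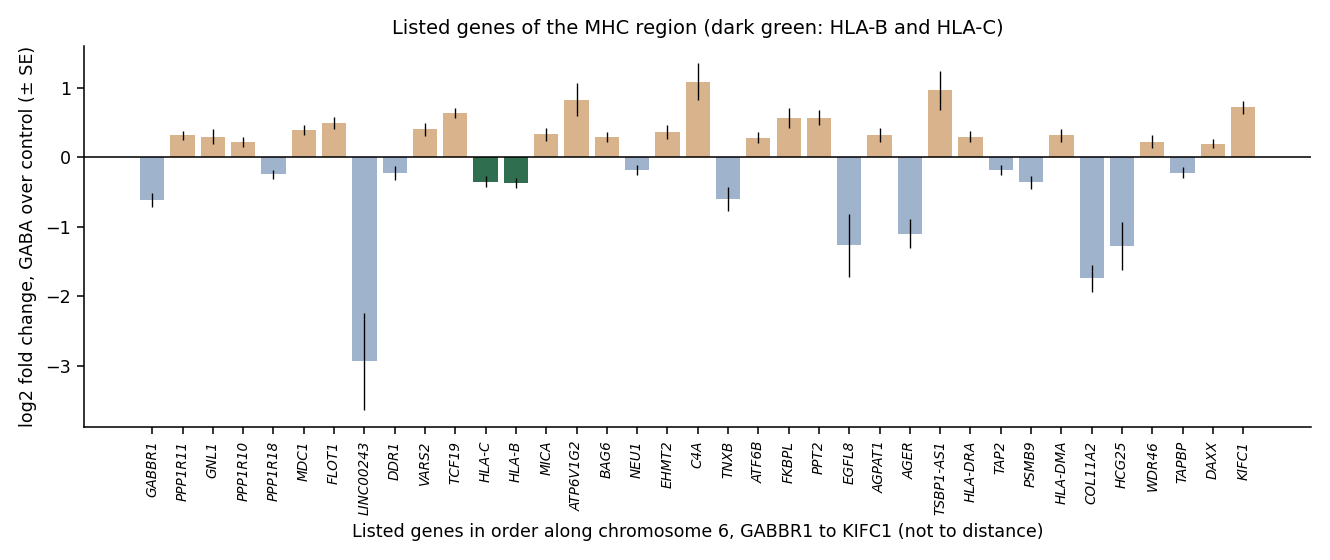
Log2 fold change of GABA over control (± SE) for 37 listed genes of the MHC region, placed in their order along the chromosome and not to distance. HLA-B and HLA-C, in dark green, are lower, while 22 genes, among them both the flanking genes TCF19 and MICA, are higher.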

How the data were processed

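The deposited values are raw read counts per gene, 1 file for each of 6 libraries, without normalization by the authors as far as the files show. The submitters' processing notes name Bowtie 0.12.2, CASAVA 1.8 and the hg38 build. The counter, annotation, strand use and choice of the 5187 listed genes are not given in the sources used here. Symbols came from a name table (5173) and GENCODE release 29 (14). Counts were tested with edgeR 4.0.16 in R 4.3.3: filterByExpr (minimum count 10, minimum total 15) kept 4981 genes, followed by TMM, a robust quasi-likelihood fit of GABA against control over all genes, and Benjamini-Hochberg adjustment with a threshold of 0.05. The SE is the absolute log2 fold change divided by the square root of the F statistic of that fit. P-values measure the spread between these cultures of 1 line. The adjustment covered the listed genes only, which hold few small differences between these groups. Most genes therefore passed, and the adjusted p-values are not read as a false discovery rate. Scripts were tested on simulated data in which most genes were unchanged, unlike the listed genes, so that test does not cover the scaling used here. DESeq2 1.42.0, limma 3.58.1 and the other settings are given at the end.

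The members and the 15 lists were chosen with earlier results of these data known. Genes were named by rule: the members, all tested genes of lists with at most 8 or else the 4 with the smallest p, the 5 closest profiles and the listed neighbours. From these some were left out. NLRC5, CIITA, RFX5, NFYB, NFYC, BIRC2, OAS3, SAMD9, WARS1, BAG6, FLOT1, GABBR1, DDR1, TNXB, COL11A2, PDGFRB, COL3A1 and TFRC were named after their values were seen. Results on some genes are not reported here.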

Additional observations from a re-analysis of the deposited data

How the results depend on the processing

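Other tools (DESeq2, limma-voom), other scalings (the size factors of DESeq2, the upper quartile, the library total), other filters (none, or a mean count reaching 10), HLA-B and HLA-C summed (added after seeing the data), a replicate block and the loss of each library in turn were tried. HLA-B, HLA-C and B2M stayed below 0 in all 44 values, from -0.41 to -0.33, from -0.42 to -0.31 and from -0.35 to -0.22, and each moved by less than the SD between replicates. With the replicate block they had -0.37, -0.35 and -0.29, and 4823 genes passed against 4918. Libraries with the same number did not deviate together (correlations over genes 0.00033, -0.089 and -0.036), and 0 of 6 correlated best with their own number, so the numbers were not taken as a pairing. No scaling moved the median of all genes by over 0.1. All scalings were computed on the listed genes, which hold few small differences, so their closeness cannot place the point of no change. Of 75 other genes followed through these settings, not all of them named above, 52 lost no call in any setting run and none changed sign. WARS1, which had no call to lose, counts among the 52. DDR1, TNXB and COL11A2 were not among the 75. With DESeq2 size factors 4 loading genes and 2 core proteasome subunits passed, and with DESeq2 1 core subunit did. With a library left out the calls ran from 3 to 7 for loading, 1 to 4 for the core, 2 to 4 for peptidases and 2 to 5 for interferon signalling. The planned sum over all class I heavy chain genes was not run. CCDS transcript lengths were chosen as a scale after seeing the data. Nonresponding genes are rarely listed, and no setting recovers their number.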
